A study of Drosophila melanogaster with 5 samples.

Results

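The Wingless set comprised 10 Drosophila genes, namely the ligands wg (FBgn0284084), Wnt4 (FBgn0010453), Wnt6 (FBgn0031902) and Wnt10 (FBgn0031903), the receptors fz (FBgn0001085), fz2 (FBgn0016797), fz3 (FBgn0027343) and arr (FBgn0000119), and the feedback inhibitors nkd (FBgn0002945) and Notum (FBgn0044028). Members were chosen by name. Their peaks were the rows carrying one of these gene identifiers in the deposited table, which lists only H3K18ac peaks called different between the groups. Of the 2626 listed peaks, 7 were assigned to a member, and they belonged to 4 of the 10 genes. H3K18ac, acetylation of histone H3 at lysine 18, was profiled by Cut&Run, in which an antibody directs a nuclease to the mark and the released DNA is sequenced. The 5 libraries came from whole wing discs, the larval primordia of the wing, of male and female w1118 larvae in the wandering stage of the third instar. The control group held 3 libraries, 1 from discs processed directly after dissection and 2 from discs kept in explant culture for 2 h. The etomoxir group held 2 libraries, both of discs whose 2 h culture contained etomoxir at 500 µM. Etomoxir blocks carnitine palmitoyltransferase and thereby the entry of long-chain fatty acids into mitochondria for fatty acid β-oxidation (FABO). The comparison therefore asks how H3K18ac at Wingless pathway genes differed after acute inhibition of FABO.

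Wingless is a secreted Wnt protein that organizes growth and pattern of the fly wing from its source at the dorsoventral boundary of the disc. It binds Frizzled receptors together with the co-receptor Arrow, which stabilizes the β-catenin Armadillo, and Armadillo joins the DNA-binding protein Pangolin (Pan, the fly TCF) to activate target genes. Several pathway components are themselves regulated by the signal, among them nkd, Notum and fz3, which are induced by it, and fz2, which is repressed by it in the wing disc. H3K18ac is deposited by CBP, the product of nej in flies, and marks active enhancers and promoters.

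H3K18ac was lower after etomoxir at all 7 listed peaks assigned to the Wingless set. The peaks lay at Wnt6 (1 peak), Wnt10 (2), fz2 (2) and nkd (2). Levels are given as concentration, the log2 of the mean normalized read count of a peak in a group, and the difference is etomoxir minus control. The 7 differences ran from -2.09 to -1.11 with a median of -1.87, so that the peaks retained between 23.5% and 46.3% of the control read count. All 7 were lower by at least 1 on the log2 scale. Among all listed peaks 83.5% were lower and 57.5% were lower by at least 1, with a median difference of -1.08, or -1.19 over the 2194 lower peaks alone.

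The table gave 1 mean per group and no value per library, so neither the spread between libraries nor a test could be computed for these differences. Every listed peak had passed an FDR of 0.05 in the comparison made by the authors. The paper called many more H3K18ac peaks than are listed. Shares of listed peaks that were lower therefore do not describe all peaks in a gene or in the genome. A member with no listed peak cannot be called unmarked or unchanged, since peaks outside the table were not analysed here. Culture cannot be told apart from etomoxir for the part of the control mean that came from discs dissected directly. In these bulk discs, a lower mark per cell cannot be told apart from fewer cells that carry it.

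**Figure D1:**
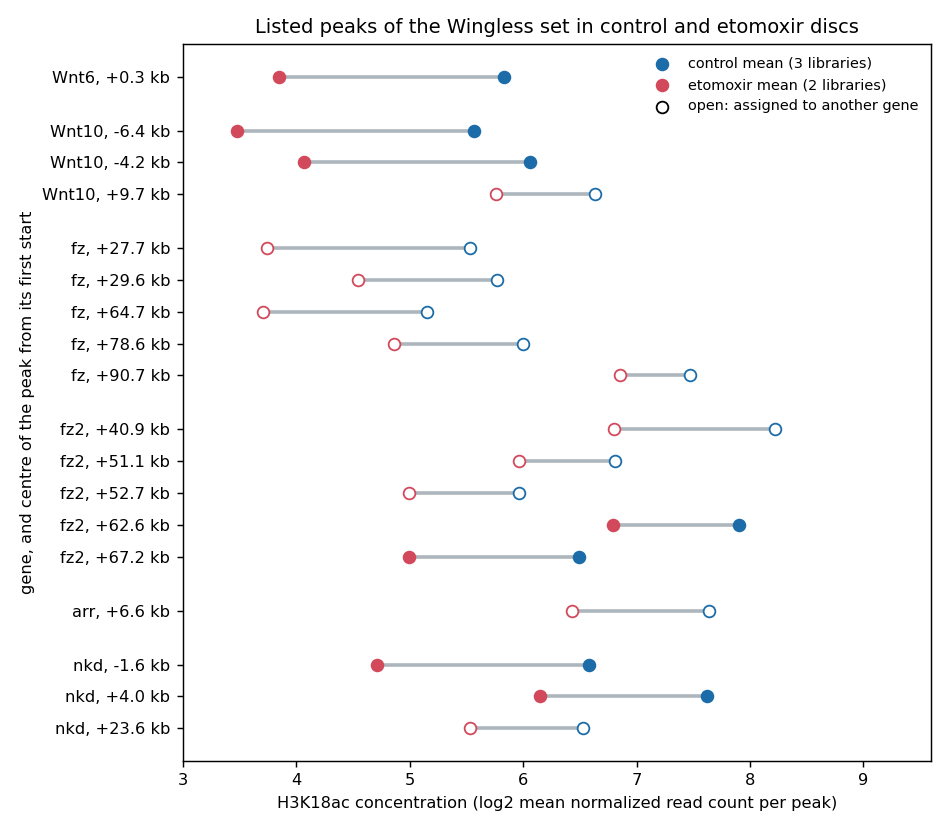
Mean H3K18ac concentration (log2 mean normalized read count per peak, horizontal axis) at the 18 listed peaks assigned to a gene of the Wingless set or lying inside one, in control (blue, mean of 3 libraries) and etomoxir discs (red, mean of 2 libraries). Filled circles mark the 7 peaks assigned to the gene named and open circles the 11 assigned to another gene, rows are placed by the distance of the peak centre from the first start of the gene, and the etomoxir circle lies to the left of the control circle in every row.

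Among the ligands, the lower peaks were at Wnt6 and Wnt10, which lie next to wg and Wnt4 in a cluster of 4 Wnt genes on chromosome 2L. All coordinates refer to the dm6 build. The Wnt6 peak (chr2L:7333653-7334303) covered the transcription start of Wnt6, a Wnt gene expressed like wg at the dorsoventral boundary. It extended from 61 bases before the start to 589 bases after it. Its concentration was 5.83 in control and 3.85 in etomoxir discs, or 56.9 and 14.4 mean normalized reads, a difference of -1.98. This was the only one of the 7 peaks that covered a start of the gene to which it was assigned.

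Both Wnt10 peaks were intergenic and lay upstream of the gene, between Wnt6 and Wnt10. The first (chr2L:7356819-7357225), which ended 6154 bases before the Wnt10 start, had a concentration of 5.57 in control and 3.48 in etomoxir discs. It began 4277 bases past the end of Wnt6, so it lay closer to the body of Wnt6 and was assigned to Wnt10 by the nearest start. Its difference of -2.09 was the largest of the set without added reads, and 7.06% of the 2194 lower peaks had a larger fall. The second (chr2L:7358887-7359507), which ended 3872 bases before the start, went from 6.06 to 4.07, a difference of -1.99. At 407 and 621 bases, these and the Wnt6 peak (651 bases) were the 3 narrowest of the 7 and the 3 with the lowest etomoxir levels, between 11.2 and 16.8 mean normalized reads. When 10 reads were added to both group means, the 3 differences became -1.45 at Wnt6 and -1.44 and -1.52 at Wnt10, and the largest of the 7 was then -1.55 at the peak upstream of nkd.

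The sequences of the ligand peaks are shown because they carry the 3 largest differences among the 7 peaks when no reads are added. They were read from the RefSeq dm6 genome on the plus strand for the first 2 and on the minus strand for the third. The first is the part of the Wnt6 peak before the transcription start (chr2L:7333653-7333713). The second is the central 300 bases of the distal Wnt10 peak (chr2L:7356873-7357172), with CTCTC, the GAGA repeat read from the other strand, in capitals. The third is taken from the proximal Wnt10 peak (chr2L:7359051-7359151), with CTTTGAT, the core sequence bound by Pan, in capitals.
Wnt6 before the start: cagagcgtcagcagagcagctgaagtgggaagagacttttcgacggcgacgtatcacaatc
Wnt10 distal peak: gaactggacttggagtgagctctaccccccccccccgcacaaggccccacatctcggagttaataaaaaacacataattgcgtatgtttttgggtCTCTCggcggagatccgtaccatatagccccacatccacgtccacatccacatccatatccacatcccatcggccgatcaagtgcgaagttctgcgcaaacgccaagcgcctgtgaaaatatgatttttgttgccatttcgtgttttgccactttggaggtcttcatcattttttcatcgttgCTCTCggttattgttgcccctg
Wnt10 proximal peak: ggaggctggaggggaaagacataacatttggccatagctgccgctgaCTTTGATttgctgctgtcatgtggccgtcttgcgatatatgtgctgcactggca

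No listed peak was assigned to wg, the founding Wnt gene of the fly, or to Wnt4, which is transcribed from the opposite strand at the other end of the cluster. The body of wg (9107 bases), the body of Wnt4 (21753 bases) and the 29987 bases between them held none. The closest to wg was a peak of 2059 bases (chr2L:7319691-7321749) that began 3426 bases past the end of wg and 12532 bases from its start. It was assigned to lncRNA:CR45304, whose start was 7770 bases away, and its concentration was 7.56 in control and 5.57 in etomoxir discs, a difference of -1.99. The same peak was the closest to Wnt4, 42520 bases from its start.

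Over the 122110 bases from Wnt4 to Wnt10, 5 listed peaks were found and all 5 were lower, compared with 83.5% of all listed peaks. The 4 from the end of wg to the start of Wnt10 differed by -1.99, -1.98, -2.09 and -1.99 in the order of the chromosome. The fifth (chr2L:7372515-7373683), within the Wnt10 gene but assigned to the antisense transcript asRNA:CR44063, went from 6.63 to 5.76, a difference of -0.87. When no reads were added, the 4 upstream peaks thus differed among themselves by little. This held although 11903, 22515 and 1661 bases separated neighbours and their control levels ranged from 47.5 to 189 mean normalized reads. With 10 reads added, the differences became -1.45 at Wnt6 and -1.44 and -1.52 at Wnt10, and the lncRNA:CR45304 peak was not recomputed. That peak had more reads than the others, 189 in control and 47.5 in etomoxir discs. Added reads would therefore reduce its difference less, so the closeness of the 4 depends on adding no reads.

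**Figure D2:**
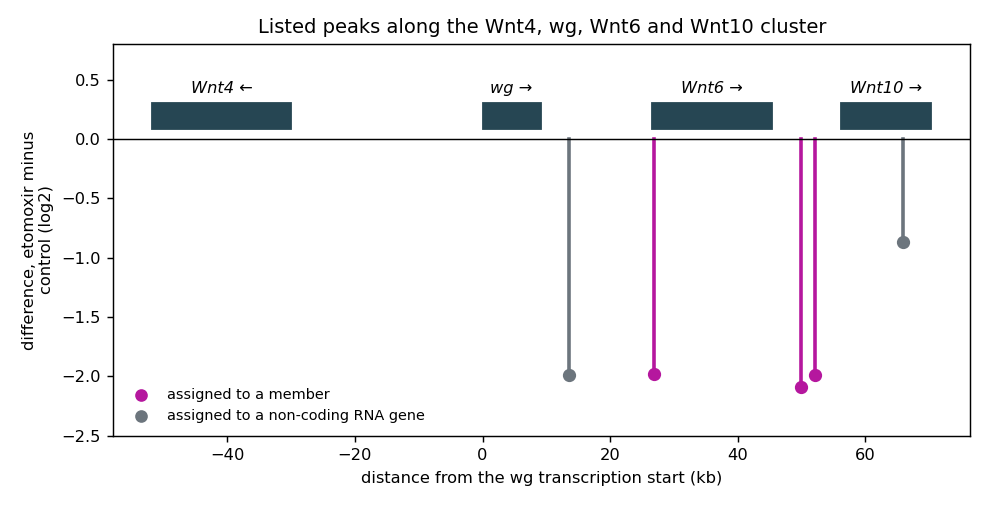
Listed H3K18ac peaks over the Wnt4 to Wnt10 cluster, with the difference in concentration (etomoxir minus control, log2, vertical axis) against distance from the wg transcription start (kb, horizontal axis) and the 4 Wnt genes drawn as bars to scale with arrows for the direction of transcription. Magenta stems are peaks assigned to a member and grey stems those assigned to a noncoding RNA gene. The 4 peaks between wg and Wnt10 sit between -2.09 and -1.98, the peak within Wnt10 at -0.87, and none lies in Wnt4 or wg.

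Of the receptors, fz2, which encodes a high-affinity Wingless receptor, had 2 assigned peaks, and fz, fz3 and arr had none. The fz2 gene spans 94399 bases of chromosome 3L with 3 annotated starts, and both peaks flanked the middle start, from which 5 of its 8 transcripts begin. The upstream peak (chr3L:19171712-19173838, 1064 bases before this start) was the strongest and widest of the 7, with concentrations of 7.90 and 6.79 (239 and 111 mean normalized reads). Its difference of -1.11 was the smallest of the 7, and 56.3% of the lower peaks had a larger fall. The downstream peak (chr3L:19167782-19168615, 2033 bases past the start) went from 6.49 to 4.99, a difference of -1.50.

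A further 3 listed peaks lay inside fz2 but were assigned to lncRNA:CR45941, a noncoding gene within it. The strongest of all peaks in the set (chr3L:19193426-19195495), in intron 4 of 6 of an fz2 transcript, had concentrations of 8.22 and 6.80, or 298 and 111 mean normalized reads, and a difference of -1.42. The others, at and near the lncRNA start, differed by -0.85 (6.81 to 5.96) and -0.97 (5.96 to 4.99). All 5 listed peaks inside fz2 were therefore lower, between -1.50 and -0.85, whichever gene they were assigned to. Among all listed peaks 83.5% were lower. The intronic peak held a Pan core, which is shown in capitals within 101 bases of the minus strand (chr3L:19194223-19194323).
fz2 intronic peak: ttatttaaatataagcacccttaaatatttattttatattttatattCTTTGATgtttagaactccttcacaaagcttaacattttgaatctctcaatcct

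The fz gene, whose product acts as a receptor both in Wingless signalling and in planar cell polarity, spans 94297 bases and held 5 listed peaks. None was assigned to fz, since in each case the start of another gene was closer, and the peak closest to the fz start lay 27496 bases downstream of it. A pair in intron 1 of 4, assigned to lncRNA:CR45025, differed by -1.79 (5.53 to 3.74) and -1.23 (5.77 to 4.54). In intron 4, a peak assigned to CG13482 differed by -1.44 (5.15 to 3.71), and 2 assigned to CG13481 differed by -1.14 (6.0 to 4.86) and -0.62 (7.47 to 6.85). The difference at the last, which lay near the end of fz, was the smallest of the 18 peaks inside or assigned to members.

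**Figure D3:**
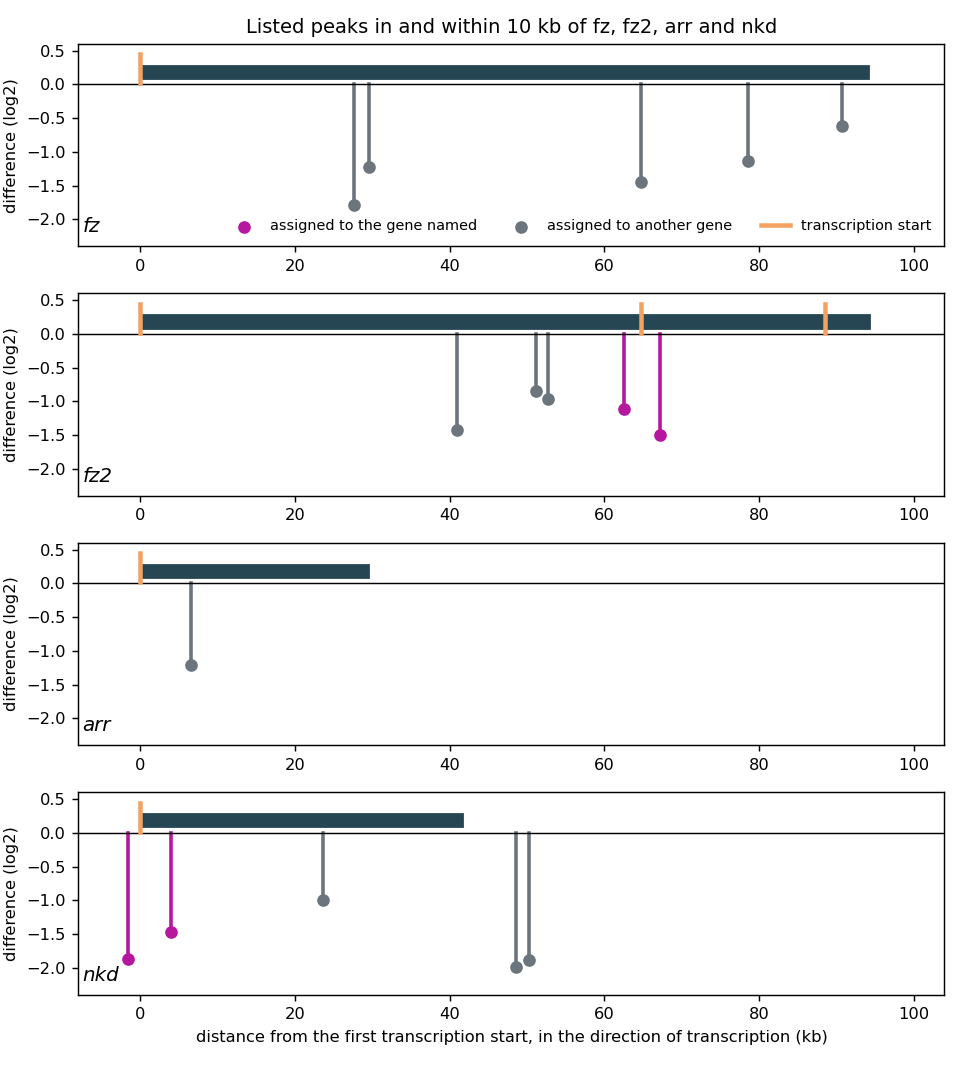
Listed peaks in and within 10 kb of fz, fz2, arr and nkd, with the difference in concentration (etomoxir minus control, log2, vertical axis) against the distance from the first transcription start in the direction of transcription (kb, horizontal axis). Bars are the genes to scale, orange ticks the transcription starts, magenta stems the peaks assigned to the gene and grey stems those assigned to another, and every stem points downward.

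The co-receptor gene arr, which encodes the fly LRP5/6 protein, held 1 listed peak of 1390 bases, 5860 bases downstream of its start and at the start of CG43192, a gene within it. Its concentration was 7.64 in control and 6.43 in etomoxir discs, a difference of -1.21. No listed peak was found in fz3, which encodes a receptor that attenuates the signal, and the closest, assigned to Rbf, lay 31503 bases from its start with a difference of -0.69.

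Of the feedback inhibitors, Notum, which encodes a secreted enzyme that removes the lipid from Wnt proteins, had no listed peak in its body. Peaks assigned to noncoding genes lay on either side of it. That assigned to lncRNA:CR45998 ended 6509 bases upstream of Notum and differed by -1.13 (6.39 to 5.26). That assigned to asRNA:CR45889 began 8372 bases past its end and differed by -1.16 (7.2 to 6.04).

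The nkd gene, which encodes an inhibitor that binds Dishevelled, had 2 assigned peaks on either side of its only annotated start on chromosome 3L. The upstream peak (chr3L:19046697-19047451, 1248 bases before the start) went from 6.58 to 4.71, or from 95.7 to 26.2 mean normalized reads, a difference of -1.87. It was the peak of highest density in control discs among the 7, at 127 normalized reads per kb. The peak in intron 1 of 4 (chr3L:19040498-19042444, 3005 bases past the start) went from 7.62 to 6.15, or from 197 to 71.0 reads, a difference of -1.47. This intronic peak held 1 Pan core and 3 matches to GCCGCC, the core of the helper sequence that Pan also reads, and the Pan core is shown in capitals within 101 bases of the plus strand (chr3L:19040633-19040733).
nkd intronic peak: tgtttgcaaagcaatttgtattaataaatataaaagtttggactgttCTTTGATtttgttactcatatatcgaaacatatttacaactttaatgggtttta

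A further peak inside nkd, also in intron 1 but assigned to lncRNA:CR45940, differed by -1.0 (6.53 to 5.53). Past the end of nkd, a pair of adjoining peaks at CG18135, 6490 and 7301 bases away, differed by -1.99 (6.50 to 4.51) and -1.89 (8.18 to 6.29). The differences around nkd were thus larger at the flanks than at the peak in the middle of intron 1.

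By the nearest start, 4 of the 10 members had a lower peak, compared with 7.89% of 13986 protein-coding genes. Counted instead by a peak centre in the gene body or the 3000 bases before it, 6 of 10 members had a lower peak (Wnt6, Wnt10, fz, fz2, arr and nkd), compared with 10.2% of protein-coding genes. Wnt10 counted here only through the peak assigned to asRNA:CR44063, since both peaks assigned to Wnt10 lay outside this span. Member genes are long, and among the 2112 protein-coding genes at least as long as wg, the shortest member, the share was 31.1%. The members counted by gene body ran from 14150 bases (Wnt10) to 94399 (fz2), so this share was not matched to their lengths. No length-limited share was computed for the count by nearest start. No test was run on these counts.

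The 7 assigned peaks resembled the lower listed peaks in control signal, with a median of 108 normalized reads per kb (87.4 to 127) compared with 107. In etomoxir discs the medians were 34.7 and 45.9 normalized reads per kb. Median GC content was 50.7% at the assigned peaks and 45.4% at the lower peaks, and median widths were 755 and 894 bases. The 11 peaks inside members that were assigned elsewhere had a median difference of -1.14, close to that of the lower peaks, and 7 of them were lower by at least 1. The falls at the 7 assigned peaks were exceeded by 7.06% to 56.3% of the lower peaks. Those at the peaks inside fz were exceeded by 14.2% to 95.9% of them.

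**Figure D4:**
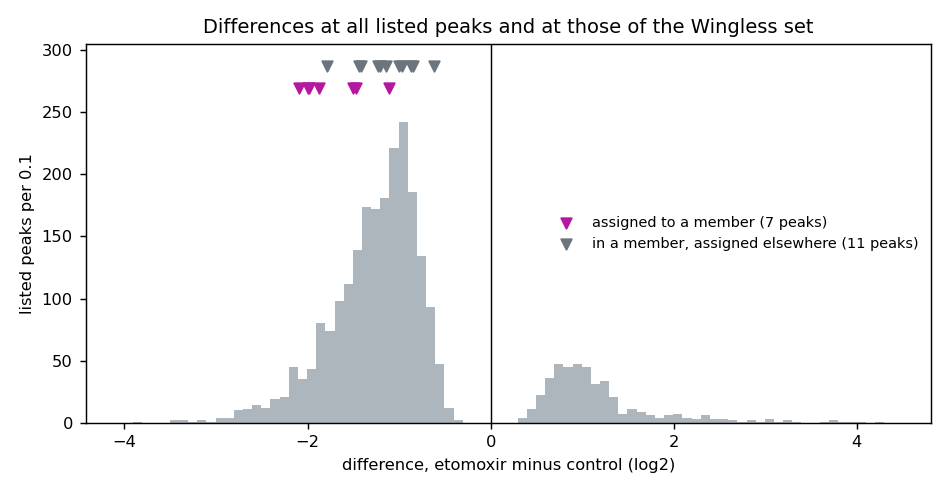
Histogram of the difference in concentration (etomoxir minus control, log2, horizontal axis, in bins of 0.1) over the 2626 listed peaks, with triangles for the 7 peaks assigned to the Wingless set (magenta) and the 11 inside its genes but assigned elsewhere (grey). All triangles lie left of 0, the magenta ones between -2.09 and -1.11 and the grey ones between -1.79 and -0.62.

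Sequence motifs were searched on both strands. CTTTGAT, the Pan core, was found in 2 of the 7 assigned peaks, at Wnt10 and nkd, and in 3 of the 18 assigned or inside, compared with 16.0% of listed peaks. In the central 300 bases it was found in 1 of 7, at Wnt10, compared with 3.85%. GCCGCC was found in 3 of 7 peaks (both nkd peaks and the downstream fz2 peak) compared with 42.5%, and in none of the 7 centres compared with 16.6%. GAGAG, the repeat bound by the GAGA factor Trithorax-like, was found in 6 of 7 peaks compared with 77.2%, and in 2 of 7 centres compared with 41.6%. The upstream fz2 peak alone held 14 matches. None of the 3 motifs contains another. Matches describe letters in the peak only, and binding was not measured.

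The other genes of the pathway were described from a list of 64, grouped by role. Of these, 17 had only lower peaks, 1 had a higher peak and 46 had no listed peak, compared with a lower peak at 7.89% of protein-coding genes. By a peak centre in the gene body or the 3000 bases before it, 19 of 64 had a lower peak, compared with 10.2% of protein-coding genes. The share was 31.1% among protein-coding genes at least as long as wg, but the 64 were not chosen by length. By the nearest start, lower peaks were found at 5 of 11 genes for heparan sulfate proteoglycans, which bind Wingless outside the cell, and at 5 of 12 target genes in the disc. They were found at 3 of 20 genes of the intracellular cascade, 3 of 10 genes for other ligands and receptors, 1 of 4 planar polarity genes and none of 7 genes for ligand secretion. By the gene body, the counts became 6 of 12 for the target genes and 2 of 4 for the planar polarity genes, and the roles were not tested against each other. The genes with no listed peak included arm and pan, which encode the effectors of the pathway, and nej, which encodes CBP.

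Among the proteoglycan genes, the glypican gene dally, whose product holds Wingless at the cell surface, had 5 peaks, all upstream of its start, between -2.71 and -1.40. The largest fall was from 7.31 in control to 4.60 in etomoxir discs. The second glypican gene, dlp, had 4 peaks between -2.0 and -1.12, and the peak of the syndecan gene Sdc went from 5.34 to 3.66, a difference of -1.68. The largest falls at trol, which encodes perlecan, and at the sulfatase gene Sulf1 were -1.4 and -0.85. The exception was sotv, which encodes an enzyme that extends heparan sulfate chains, with a peak at its start that was higher after etomoxir, at 5.03 in control and 6.15 in etomoxir discs, a difference of 1.12.

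Among the target genes, ct, a homeobox gene of the wing margin, had an intronic peak that went from 5.49 to 3.04, a difference of -2.45. This peak held only 8.22 mean normalized reads in etomoxir discs. The POU-domain gene vvl had 3 peaks between -2.13 and -1.57, and the start of sens, a sensory organ gene of the margin, went from 6.20 to 4.66, a difference of -1.54. The remaining target genes with a listed peak, vg and dve, differed by -1.5 and -1.21. No listed peak was assigned to the target genes Dll, ac, sc, Myc, Doc1, Doc2 and Doc3. In the intracellular cascade, the largest falls at each gene were -1.56 at sgg, which encodes the kinase GSK3, -1.26 at the co-repressor gene CtBP and -0.97 at the casein kinase gene gish. The start of otk, which encodes a Wnt co-receptor, went from 5.34 to 3.21, a difference of -2.13, compared with -0.78 at its paralogue otk2, -0.75 at Wnt2 and -0.76 at the planar polarity cadherin gene stan.

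**Figure D5:**
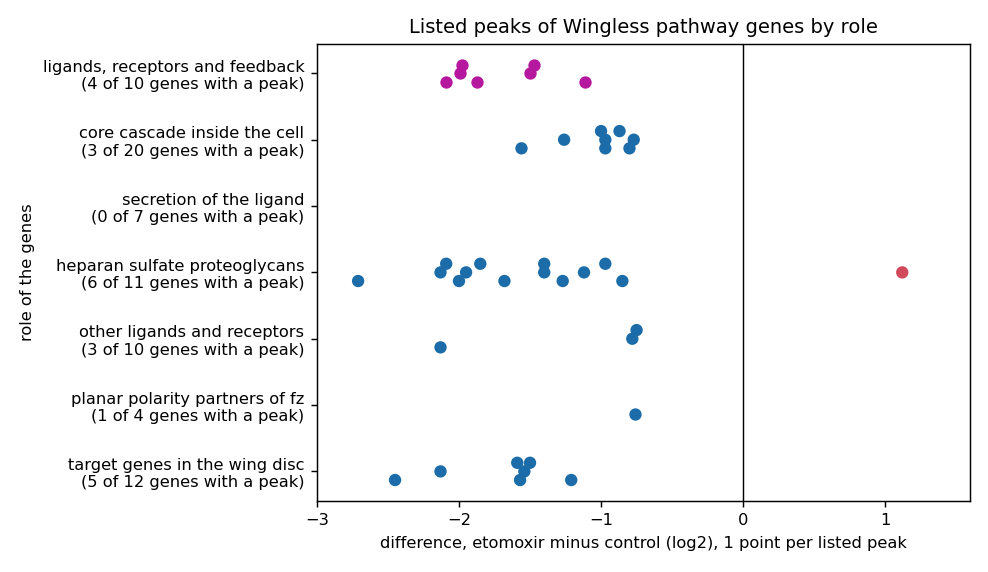
Difference in concentration (etomoxir minus control, log2, horizontal axis) at each listed peak assigned to a gene of the Wingless pathway, with genes grouped by role and 1 point per peak. The 7 peaks of the Wingless set (magenta) and 32 of the 33 peaks of the other pathway genes (blue) lie below 0, the lowest at -2.71 at dally, and the peak of sotv (red) lies at 1.12.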

How the data were processed

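H3K18ac Cut&Run was performed on 5 libraries of wing discs with yeast spike-in DNA, and whether the spike-in scaled the libraries is not given in the sources used here. Per the submitters' processing notes and the study's methods, reads were trimmed with Trim Galore 0.6.3, aligned to dm6 with Bowtie2 2.4.2 and freed of duplicates with MarkDuplicates, peaks were called with MACS2 2.1.1.20160309.6, groups were compared with DiffBind 2.10.0 and peaks annotated by nearest transcription start with ChIPseeker 1.18.0. The authors deposited log2 mean normalized read counts per peak, over all libraries and per group, and the overall value equalled the log2 mean of the groups weighted 3 to 2 within 0.02 at 100% of peaks. The deposited fold change, p-value and FDR columns hold the authors' comparison and were not used, except that no FDR above 0.05 was found. Depth per library was not in the table, and the study's Reporting Summary gives far more unique reads for 1 cultured control than for the other libraries.

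The difference was taken between the deposited group values. The deposited starts count from 0 (100% of distances were then recovered), and coordinates are printed from 1. Gene bodies came from Ensembl release 115 (BDGP6 version 6.54), in which 98.2% of gene identifiers were found and 33 were not. Sequences came from the RefSeq dm6 assembly. Linear read counts are 2 raised to the concentration. Named were all members, the genes to which peaks inside or within 10000 bases of a member are assigned, and, in each role of the pathway list, the 3 genes with the largest difference and any with a higher peak. The genes Mkp3, Rbf, trol, Sulf1, vg and dve were added after their values were seen. Also named outside these rules were arm, pan, nej and the target genes with no listed peak. Members and lists were chosen with earlier results of these data known. Alternatives covered the assignment of peaks, distance to the start, size of the difference, low signal, joining of neighbours, a pseudocount of 10 reads and the sequence searched. Scripts used Python 3.11.15, numpy 2.4.6, pandas 2.3.3 and matplotlib 3.10.9 and were tested on simulated data.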

Additional observations from a re-analysis of the deposited data

How the results depend on the processing

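The direction at the 7 peaks assigned to the Wingless set could not reverse under these alternatives. They select, reassign or join peaks, or add the same number of reads to both means. The median difference of the 7 peaks, -1.87, was the same with only differences of at least 1 and with peaks within 500 bases joined. Neither of these settings removed or joined any of the 7. The median became -1.22 over the 16 peaks with a centre in a member gene or the 3000 bases before it. It was -1.69 over the 4 peaks within 3000 bases of their start. Over the 5 peaks with a concentration of at least 4 in both groups it was -1.50, and with 10 reads added to both group means -1.44. Reassignment by gene body changes no peak's own difference. Its median of -1.22 can therefore be set beside -1.19 over all lower listed peaks and -1.08 over all listed peaks. Under the other settings the median over all listed peaks was not recomputed, so those values have no matched comparison. Members with a lower peak numbered 3 to 6 over the alternatives, compared with 4, and other pathway genes 12 to 19, compared with 17. Searching whole peaks in place of their centres raised the peaks with the Pan core from 1 to 2 of 7, those with GCCGCC from 0 to 3 and those with GAGAG from 2 to 6. No paired analysis was possible because the deposited values are group means, and libraries could not be left out for the same reason. Precision is limited by the 2 etomoxir libraries and, at the Wnt6 and Wnt10 peaks, by means of 11.2 to 16.8 normalized reads. Among the other pathway genes, etomoxir means were also low at ct (8.22), otk (9.25), Sdc (12.6) and vvl (down to 12.2).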

Other observations

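The feedback gene nkd and the receptor gene fz2 are neighbours on chromosome 3L. The 231633 bases from the end of nkd to the distal start of fz2 held 12 listed peaks. All of them were lower, between -1.87 and -0.85 with a median of -1.26. Among all listed peaks 83.5% were lower, and the median difference of the lower peaks was -1.19. The stretch held 5.18 listed peaks per 100 kb, compared with 4.09 over the cluster from Wnt4 to Wnt10 and 1.96 over the assembled chromosomes. Both stretches, and Mkp3, were picked with these values in view and were not tested. Between the genes, 4 of the peaks were assigned to Mkp3, which encodes a phosphatase that inactivates the MAP kinase ERK and is no member of the Wingless pathway. Their differences were -1.16 (6.81 to 5.65), -1.36 (6.34 to 4.98) and -1.0 (6.56 to 5.56) in intron 1 and -1.36 (5.55 to 4.19) close to a start. These lay within the range of the nkd and fz2 peaks on either side.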
